A study of Drosophila melanogaster with 2 samples.

Results

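In whole fly embryos (Drosophila melanogaster), 396 nuclear TFAM-GFP peaks lay at the start of a single gene. They are the peaks of the deposited list that passed the authors' reproducibility threshold whose summit lay within 500 bp of an annotated transcription start site of exactly 1 gene, after peaks on the mitochondrial genome were set aside. They made up 31.2% of the 1268 nuclear peaks of that list (95% Wilson interval 28.7 to 33.8), which held 1290 peaks in all. Another 220 nuclear peaks lay within 500 bp of the starts of 2 or more genes, called shared starts below, and 652 lay farther from any start. The single-start peaks belonged to 378 genes, of which 340 code for proteins, 37 give non-coding RNA and 1 gives a small nuclear RNA. The sequence around the summits was compared with 3 other sets: the shared-start peaks, the peaks far from starts, and 1991 single-start regions of the pooled list that overlapped no thresholded peak, called regions below the threshold.

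The embryos came from the TFAM-GFP strain, a transgenic line that stably expresses TFAM with GFP fused to its C terminus, were of both sexes and were collected at 0 to 16 h of development. The 2 samples are biological replicates 3 and 4 of this 1 group, and each has its own biosample. Chromatin was sonicated to fragments of 200 to 800 bp, and the sample descriptions give anti-GFP as the antibody of the precipitation, while the field for the antibody reads TFAM. Whole embryos mix all embryonic cell types, so the peaks cannot be assigned to a cell type. The labels do not state the promoter that drives the fusion. No sample without the tag was analysed here, so DNA bound by TFAM-GFP and DNA that any precipitation with this antibody would recover cannot be told apart. With 1 group of 2 samples, no test over samples is possible. Differences between sets of peaks are therefore given with intervals over peaks or genes, which cover counting only, and with the value from each replicate, and nothing below is particular to these peaks by a test.

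TFAM is a protein with a pair of HMG boxes, DNA-binding domains that insert into the minor groove and bend the helix. It coats and compacts mitochondrial DNA and takes part in starting mitochondrial transcription, and it is made in the cytosol from a nuclear gene. In nuclear DNA, promoters of flies often hold a nucleosome-free stretch just upstream of the start, bound by factors such as the DRE-binding factor DREF and the GAGA factor.

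The strongest single-start peaks are shown by the DNA under their summits. The sequences below are on the + strand of dm6, read from the RefSeq FASTA of Release 6, and cover up to 50 bases on each side of the summit without bases annotated as untranslated. They belong to 6 of the 8 highest single-start peaks, and capitals mark runs of 6 or more A or T. They are Ugalt (chrX:2703853-2703945), CG14100 (chr3L:19590562-19590662), ph-p (chrX:2137280-2137380), lncRNA:CR31840 (chr2L:14024033-14024133), PNPase (chr3R:31404608-31404652, which ends just before the summit because the untranslated region begins there) and CG13921 (chr3L:1746716-1746816).
Ugalt: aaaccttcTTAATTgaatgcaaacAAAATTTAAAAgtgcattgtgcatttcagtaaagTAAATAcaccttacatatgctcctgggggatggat
CG14100: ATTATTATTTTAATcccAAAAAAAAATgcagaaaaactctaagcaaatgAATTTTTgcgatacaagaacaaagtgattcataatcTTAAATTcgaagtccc
ph-p: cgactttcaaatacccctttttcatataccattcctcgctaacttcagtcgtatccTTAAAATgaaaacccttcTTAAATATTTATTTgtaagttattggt
lncRNA:CR31840: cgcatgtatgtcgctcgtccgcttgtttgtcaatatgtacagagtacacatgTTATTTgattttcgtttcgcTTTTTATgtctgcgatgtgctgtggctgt
PNPase: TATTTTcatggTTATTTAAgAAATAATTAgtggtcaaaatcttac
CG13921: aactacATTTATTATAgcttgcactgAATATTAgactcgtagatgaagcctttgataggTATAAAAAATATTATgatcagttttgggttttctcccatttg
Every one of these 6 stretches holds at least 1 such run, and A and T make up 57.4% (lncRNA:CR31840) to 77.8% (PNPase) of the printed bases. How often such runs occur at other starts was not counted. Within 100 bp of the summit, untranslated bases included, A+T was 54.7% (Ugalt) to 63.2% (CG14100, PNPase and CG13921). All 6 lay below the median of 64.7% over all single-start peaks, so these strongest peaks were not the richest in A and T.

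The strongest peak of all lay 43 bp upstream of Ugalt, which encodes a Golgi transporter of UDP-galactose. Its score was 837 in the thresholded list, 362 in replicate 3 and 474 in replicate 4. A score is the value the authors' list gives each peak in its signal column. The labels do not say how it was computed, and each list has its own scale, so scores are compared only within a list. Next came plexus (px), a gene of wing vein patterning, with 809.7 in the thresholded list, 339 in replicate 3 and 464 in replicate 4 at an internal start of the gene. CG14100 followed with 723, 320.5 and 409 in the same order. These 3 peaks ranked in the same order in both replicates.

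ph-p, which encodes the Polyhomeotic subunit of Polycomb repressive complex 1, carried a pair of high peaks 596 bp apart. One lay 475 bp upstream of an internal start (656 in the thresholded list, 302 in replicate 3, 348 in replicate 4) and the other 445 bp downstream of its outermost start (410.4, 257 and 157). The first was the higher of the pair in both replicates. PNPase, the polynucleotide phosphorylase that degrades RNA in mitochondria, had its summit 82 bp inside its transcript, with 563 in the thresholded list, 235 in replicate 3 and 323 in replicate 4. CG1888, at 240 bp upstream of its nearest start, had 543, 211 and 338, and CG13921, at 141 bp upstream, had 487, 209 and 275.

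Other genes of known function among the 25 highest peaks are described one by one, and no share of a role among them was tested. Fkbp14, a prolyl isomerase of the endoplasmic reticulum, had 437 in the thresholded list, 244 in replicate 3 and 199.7 in replicate 4. Alg3, a mannosyltransferase of N-glycan assembly, had 326, 159 and 165, and Rtnl1, a reticulon that shapes the endoplasmic reticulum, had 349, 191 and 158. The kinase genes gish, a casein kinase 1, and for, the cGMP-dependent kinase of foraging behaviour, had 392, 168 and 233, and 375, 180.0 and 201.

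PAN3, a subunit of the deadenylase that shortens poly(A) tails, had 368 in the thresholded list, 177 in replicate 3 and 178 in replicate 4. larp, which binds messenger RNAs of the translation machinery, had 360.0, 191 and 167, and RluA-1, a pseudouridine synthase, had 384, 189 and 201. Sox14, itself a transcription factor with an HMG box, had 358, 143 and 216, and the receptor gene Toll-7 had 342, 156 and 188. The other members of the 25, Tina-1, CG18549, CG31145, MFS18, CG1635 and the non-coding lncRNA:CR31840 and lncRNA:CR31044, lay between 330.0 (CG1635) and 618 (lncRNA:CR31840) in the thresholded list.

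**Figure D1:**
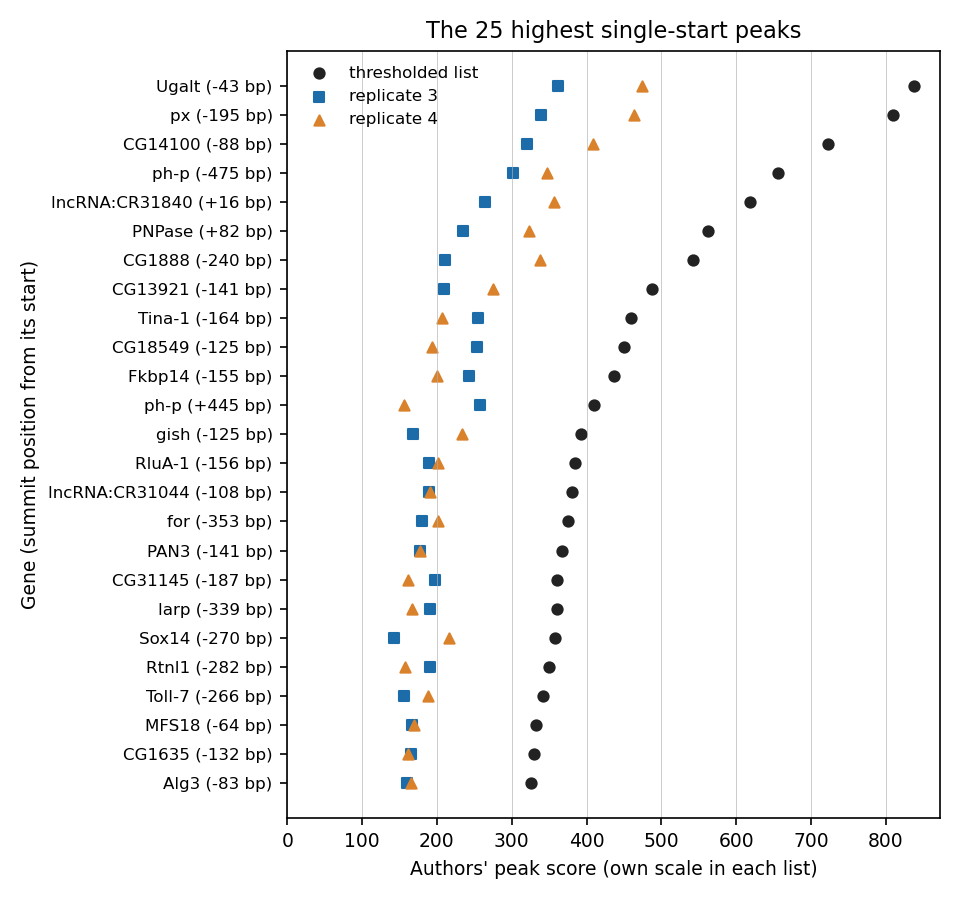
Scores of the 25 highest single-start peaks (x axis, the authors' peak score, with its own scale in each list) by gene and summit position (y axis, bp from the nearest start, upstream negative). Black circles are the thresholded list, blue squares replicate 3 and orange triangles replicate 4: the 8 highest peaks are also the 8 highest of replicate 4, while in replicate 3 the second ph-p peak, Tina-1, CG18549 and Fkbp14 (244 to 257) stood above PNPase (235).

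Over all 396 single-start peaks the median score was 138 in the thresholded list (95% interval of the median 128.6 to 144), with quartiles of 109.96 and 185 and a range of 92.4 to 837. The medians of their nearest regions in the replicate lists were 68.9 (replicate 3) and 70.7 (replicate 4). A score of 200 or more was reached by 84 peaks and a score of 300 or more by 27. The distribution thus had a long upper tail. Shared-start peaks had a median of 132 (124 to 148) and peaks far from starts 124.8 (120.3 to 129.8). Single-start and shared-start peaks could not be ranked: the single-start median was higher in the thresholded list and in replicate 4 (66.6 for shared starts) and lower in replicate 3 (72.1), and the difference of the medians, 5.90, turned to -19.2 when starts were counted within 200 bp. Peaks far from starts had the lowest median in the thresholded list and in replicate 3 (61.0). In replicate 4 their median of 66.5 (64.6 to 68.9) was level with the 66.6 of shared starts (60.8 to 70.5).

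The thresholded list was chosen by the authors for agreement between these same replicates, so a match in both is part of how the members were selected and is given as a description. Both replicates held a summit within 100 bp of 376 of the 396 single-start peaks (94.9%, 92.3 to 96.7). With a q-value of 0.05 or less required in both lists, 343 were left (86.6%). Over the 376 peaks matched within 100 bp, the summit lay a median of 11.5 bp away in replicate 3 and 9.5 bp away in replicate 4. Over the same peaks, Spearman's rho between the replicate scores was 0.57 and Pearson's r of the log scores was 0.66. These are descriptions across peaks of the same libraries, limited in range by the threshold, and the peaks are not independent. The score ratio of replicate 4 to replicate 3, each on its own scale, had a median of 1.04 and quartiles of 0.803 and 1.32. In each replicate, 2 of the 396 peaks had the same nearest region, both pairs at RapGAP1.

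**Figure D2:**
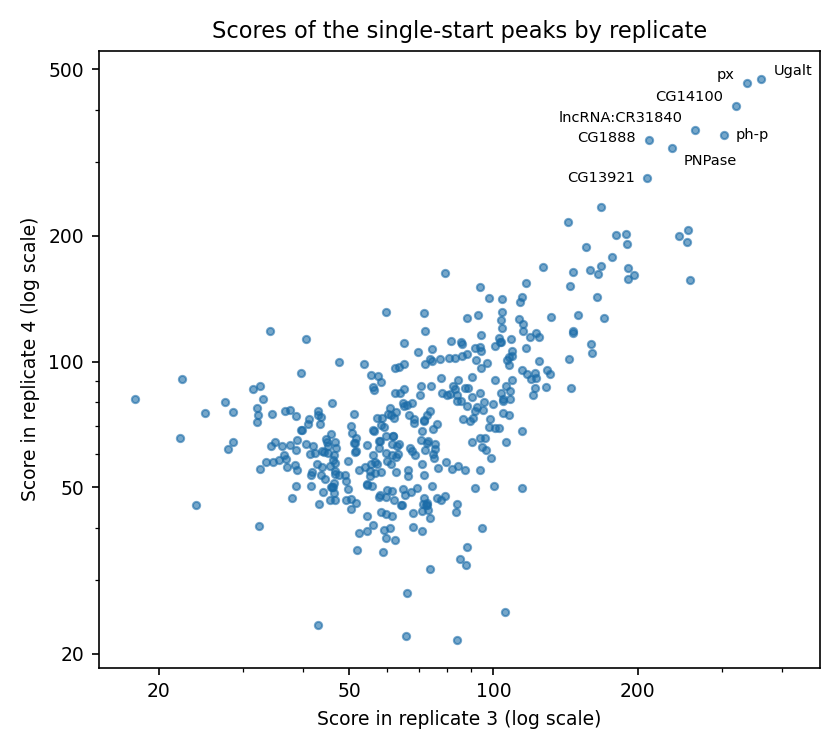
Score of each of the 396 single-start peaks in replicate 3 (x axis) and in replicate 4 (y axis), both on log scales, taken from the nearest region of each replicate list; each point is 1 peak. The 8 highest peaks of the thresholded list are named and lie at the upper right, at 209 to 362 in replicate 3 and 275 to 474 in replicate 4, while the bulk forms a broad cloud.

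The summits lay upstream of the start rather than on it. The median position was -164.5 bp from the nearest start of the gene (-180 to -149), and 334 of 396 summits were upstream (84.3%, 80.4 to 87.6). The position depended on the window: with starts counted within 200 bp the median was -97 bp, with 85.8% upstream. Between 50 and 300 bp upstream lay 240 (60.6%), and 41 lay within 50 bp of the start (10.4%, 7.72 to 13.7). Shared-start peaks sat closer, with a median of -88.5 bp and 52 of 220 within 50 bp (23.6%, 18.5 to 29.7). The rule for shared starts requires the summit to be within 500 bp of each gene's start. The position of a shared-start peak was measured from the nearest start of any of its genes. A shorter distance is thus in part built into this set, and how large that part is was not tested. Regions below the threshold had a median of -30 bp and 55.4% upstream, and the 284 of them with a q-value of 0.05 or less had -129 bp and 71.8%. The upstream excess was thus largest in the thresholded set and smaller among weaker regions at starts of the same kind.

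**Figure D3:**
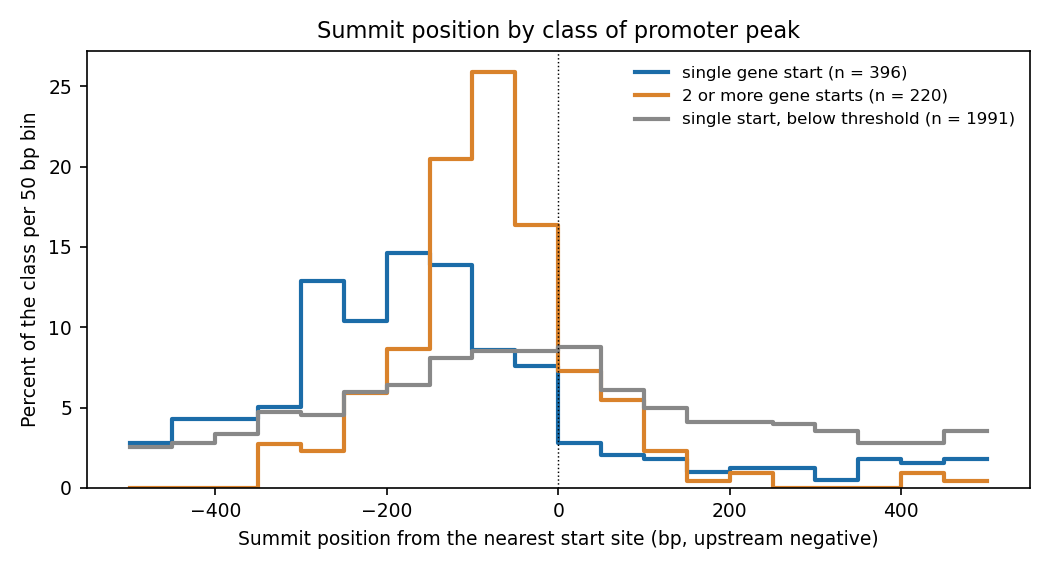
Summit position from the nearest start site (x axis, bp, upstream negative) against the percent of each set per 50 bp bin (y axis), for 396 single-start peaks (blue), 220 shared-start peaks (orange) and 1991 single-start regions below the threshold (grey). The single-start peaks spread over 50 to 300 bp upstream, shared-start peaks peak within 150 bp upstream, and regions below the threshold are nearly flat around the start.

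The height of the peaks varied with position, highest at over 100 and up to 200 bp upstream. Median scores in the thresholded list were 122.9 more than 300 bp upstream (65 peaks), 146 at over 200 and up to 300 bp (92 peaks), 151 at over 100 and up to 200 bp (113 peaks), 127 at up to 100 bp (64 peaks) and 127 from the start onward (62 peaks). The interval of the highest of these medians, 134 to 177, overlapped those of the others, for example 114.9 to 142 at up to 100 bp. In replicate 3 the medians in the same order were 72.7, 71.6, 77.7, 57.9 and 59.0, and in replicate 4 they were 59.7, 71.4, 78.1, 67.9 and 73.1. Both replicates thus had their highest median at over 100 and up to 200 bp, but the lowest lay near the start in replicate 3 and farthest upstream in replicate 4. In replicate 4 the interval more than 300 bp upstream (55.2 to 63.9) lay below those at over 200 and up to 300 bp (65.0 to 75.6) and at over 100 and up to 200 bp (69.3 to 84.0). At the edge of the 500 bp limit, the outermost peaks inside it were at Fbl6 (position 494 bp, score 135), Cyp310a1 (-491 bp, 120.4) and CG31612 (489 bp, 242), and the nearest outside it were at CG43736 (-503 bp, 147), wde (503 bp, 163) and CG10479 (-504 bp, 213). Scores on both sides of the limit were alike in size.

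No single-start summit lay in coding sequence. Of the 396 summits, 171 were outside any gene (43.2%), 153 in introns (38.6%), 72 in the non-coding part of exons (18.2%) and 0 in coding sequence (upper end of the 95% Wilson interval 0.961%). Of the regions below the threshold, 191 of 1991 lay in coding sequence (9.59%, 8.38 to 11.0). The difference was also there among summits at or downstream of the start, where coding sequence held 0 of 62 thresholded single-start peaks (upper end 5.83%) and 170 of 888 regions below the threshold (19.1%, 16.7 to 21.9). Coding sequence was also rare under shared-start peaks (1 of 220) and peaks far from starts (4 of 652), so its near absence was shared by the whole nuclear list.

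The single-start peaks were spread over the chromosome arms, with 75 on 2L, 75 on 2R, 75 on 3L, 95 on 3R, 74 on X and 2 on chromosome 4. Per Mb this was 2.67 (3L) to 3.19 (2L) on the 5 large arms. As a share of protein-coding genes, single-start peaks were found at 2.18% (2L) to 2.59% (3L) on the large autosome arms and at 2.91% on the X, where 64 of 2196 genes had one. The X also had the highest median score of the large arms (148, against 128 to 145), and 34.9% of its nuclear peaks were at a single start, against 27.6 to 33.0%. These are descriptions, and no difference between arms was tested.

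Genes with a single-start peak were longer and had more annotated starts than most genes. The 340 protein-coding genes with a single-start peak had a median length of 7225 bp (5829 to 8543), against 2164.5 bp for all 13968 nuclear protein-coding genes and 2429 bp for the 413 with a shared-start peak. They were 2.43% of all nuclear protein-coding genes. By number of annotated starts, a single-start peak was found at 122 of 10269 genes with 1 start (1.19%, 0.996 to 1.42), 90 of 2566 with 2 starts (3.51%), 54 of 693 with 3 starts (7.79%) and 74 of 440 with 4 or more (16.8%, 13.6 to 20.6). The share of genes with a shared-start peak showed no such climb, at 2.46%, 4.40%, 4.91% and 2.95%.

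A gene with more starts offers more places for a peak, so the starts were also counted as start regions, with starts within 1000 bp merged. A single-start peak was found at 190 of 12302 regions of genes with 1 start region (1.54%, 1.34 to 1.78), at 82 of 2412 regions of genes with 2 (3.40%, 2.75 to 4.20) and at 79 of 1705 regions of genes with 3 or more (4.63%, 3.73 to 5.74). The share per region thus also climbed with the number of regions. Among genes with 1 start, the share was 0.342% in the lowest quartile of gene length (11 of 3216) and 2.65% in the highest (44 of 1663, 1.98 to 3.53). Length therefore went with the share of genes that had a peak also among genes with 1 start. The number of starts was not varied at fixed length, so its relation to the share was not separated from that of length. The rule leaves out peaks that lie near the start of a second gene, and its part in these differences was not tested.

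**Figure D4:**
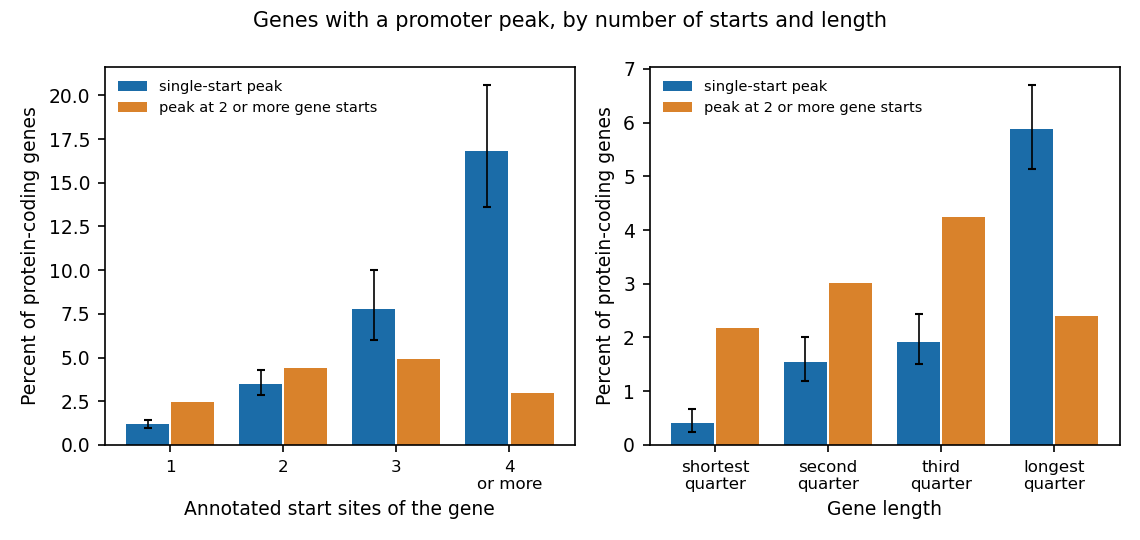
Percent of nuclear protein-coding genes (y axes, each from 0) with a single-start peak (blue, with 95% Wilson intervals) or a shared-start peak (orange, no interval drawn), by number of annotated start sites (left) and by quartile of gene length (right). The blue bars rise from 1.19% at 1 start to 16.8% at 4 or more starts and from 0.401% in the shortest to 5.87% in the longest genes, while the orange bars stay between 2.18% and 4.91%.

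Many of these peaks marked an internal start. Of the 172 peaks at genes whose starts lie over 1000 bp apart, 113 (65.7%, 58.3 to 72.4) were at a start over 1000 bp inside the gene and 49 (28.5%, 22.3 to 35.6) were nearest to the outermost start. Per start region of genes with 2 or more, the outermost region had a peak in 53 of 1666 cases (3.18%, 2.44 to 4.14) and later regions in 108 of 2451 (4.41%, 3.66 to 5.29). The intervals overlap, so a preference for internal regions was not resolved. Examples are px, whose summit lay 47771 bp downstream of the outermost start, for (24446 bp), the highest peak of Rtnl1 (12057 bp) and PAN3 (10294 bp).

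There were 13 genes with 2 or more single-start peaks, 31 peaks in all, and some had a peak at several of their starts. Ptpmeg2, a tyrosine phosphatase, had 3 peaks of similar height at successive internal starts, with scores of 199, 211 and 191 in the thresholded list, each 158 to 192 bp upstream of its start and 5268 and 4850 bp apart. In replicate 3 they had 91.4, 109 and 72.1, and in replicate 4 108, 103 and 118. Rtnl1 also had 3, but with unequal heights of 349, 95.3 and 122. larp had peaks 9129 bp apart, with 360.0 and 108, and aru, an actin-regulating adaptor gene, had 223 and 126.

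Other genes had peaks that stood next to each other at 1 start. Of 18 neighbouring pairs, 7 had summits within 250 bp, so that peaks of the usual 390 bp width overlap. These included C1GalTA, a glycosyltransferase (211 and 133), CG31886 (195 and 140, 201 bp apart) and nrv1, a sodium pump subunit (173 and 110, 201 bp apart). RapGAP1, which switches off a small GTPase of the Rap type, had 4 peaks in 2 such pairs 45963 bp apart, and Drat had 3. Of all 396 single-start peaks, 365 (92.2%) have this width, and whether such pairs are separate sites was not tested.

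Gene groups were then read against the 2.43% of all 13968 nuclear protein-coding genes that had a single-start peak (340 genes). All 23 lists were written with earlier results of these data known, and the intervals are not corrected for the number of lists. A share above 2.43% in a list is therefore a description. Genes for cytosolic ribosomal proteins had one at 20 of 93 genes (21.5%, 14.4 to 30.9), and another 26 had a peak at a shared start only. The highest were RpL24 (227 in the thresholded list, 104 in replicate 3, 120.5 in replicate 4), RpL23A (215, 103 and 111) and RpL11 (202, 86.2 and 110.1), then RpL30 (163, 72.1 and 98.7) and RpS10b (162, 65.0 and 98.6). These 5 lay between 162 and 227 in the thresholded list. The median over the 20 genes was 124.8 in the thresholded list, below the 138 of all single-start peaks, so the ribosomal genes were frequent among the peaks but not high. Their share depended strongly on the window: it was 35.5% when starts were counted within 200 bp and 6.45% within 1000 bp. These summits lay near the start, from 1 bp (RpL24) to 69 bp (RpL23A) in the 5 highest. The excess of ribosomal genes was known from earlier results of these data.

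For genes whose products work in mitochondria, most lists held no single-start peak but were too short to set them apart from all genes. There was no single-start peak at any of 73 genes for the mitochondrial ribosome (upper end of the Wilson interval 5.0%), 88 nuclear genes for subunits of oxidative phosphorylation (4.18%) and 27 genes of mitochondrial import and dynamics (12.5%), all limits above the share of all genes. A peak at a shared start only was found at 7, 2 and 1 of these genes, in that order. The lists are thus empty of single-start peaks but not of promoter peaks. Of 17 genes that maintain or express mitochondrial DNA, 2 had one (11.8%, 3.29 to 34.3): PNPase, described above, and mtSSB, the mitochondrial single-stranded DNA-binding protein (98.4). The interval lies above 2.43%, but it rests on 2 genes of a list written with earlier results of these data known. The gene TFAM itself had no summit within 500 bp of its starts in any of the 4 lists. The nearest thresholded summit lay 3017 bp away.

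Other groups of the translation and stress machinery had a few members each. Translation factors had 3 of 53: eEF1gamma (248 in the thresholded list, 93.8 in replicate 3, 151 in replicate 4) and eEF1alpha1 (133, 76.8 and 55.8), both of elongation, and eIF3c (108, 58.0 and 48.0), of initiation. Heat shock and chaperone genes had 3 of 31: Hsp27, a small heat shock protein (297, 145 and 151), Hsp83, the fly Hsp90 (253, 115.01 and 143), and lncRNA:Hsromega, a heat-induced nuclear RNA (142, 66.6 and 74.3). Translation factors thus stood at 5.66% (1.94 to 15.4), and the protein-coding heat shock and chaperone genes, without lncRNA:Hsromega, at 2 of 30 (6.67%, 1.85 to 21.3). Both intervals hold 2.43%.

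Regulators of growth, of signalling and of the ecdysone response had single-start peaks at shares whose intervals lay above 2.43%, each from few genes. Whether genes of like length and number of starts have such shares was not tested. Growth regulators had 2 of 17 (11.8%, 3.29 to 34.3), both bZIP factors: Atf3 (272 in the thresholded list, 117 in replicate 3, 154 in replicate 4) and REPTOR, which acts downstream of TORC1 (189.7, 104 and 83.9). Developmental signalling genes had 6 of 88 (6.82%, 3.16 to 14.1): sgg, the fly GSK3 kinase (229.9, 104 and 125), the EGFR ligand spi (183, 105 and 80.3), Stat92E (138, 39.7 and 93.6), the EGFR inhibitor aos (98.97) and the Hippo pathway genes Mer (97.1) and ex (94.5). Nuclear receptors and ecdysone genes had 3 of 29 (10.3%, 3.58 to 26.4), namely the receptors Eip75B (160.2) and Hnf4 (114) and the kinase gene Eip63E (112). Chromatin and insulator genes had 4 of 72 (5.56%, 2.18 to 13.4, which holds 2.43%), namely ph-p, lola (112), the demethylase gene Kdm5 (99.5) and Trl, which encodes the GAGA factor (93.1).

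Lists of tissue markers had at most 2 genes each with a single-start peak. The gut, fat body, blood and tracheal list had 2 of 19, the transcription factor genes cbt (215) and fkh (185), and the muscle and heart list had 2 of 19, the titin-like sls (138) and the cardiac homeobox gene tin (115.5), each 10.5% (2.94 to 31.4), above 2.43%. The germ line list had 1 of 11 (9.09%, 1.62 to 37.7), bgcn, a regulator of germ cell differentiation (203), and the neural list had none of 25. No single-start peak was found at 38 patterning and Hox genes, 76 genes of the RNA polymerase II machinery, 77 of splicing, 48 of the proteasome or 48 of the nucleolus. The upper ends of the intervals of these 6 empty lists, 4.75 to 13.3%, all lie above 2.43%. Peaks at a shared start only were found at 6 genes of the RNA polymerase II machinery, 3 of the nucleolus, 2 of splicing and 2 of the proteasome. The neural list had 1 such gene and the patterning and Hox list 0. Membrane trafficking had 2 of 125 (Rab5, 145, and Syx4, 104), the cytoskeleton 2 of 72 (Moe, 117, and Msp300, 104) and the cell cycle 1 of 53 (Dp, 104). The lists together accounted for 53 of the 378 genes, so most single-start peaks lay at genes outside them.

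Non-coding RNA genes had single-start peaks at 37 of 3289 (1.12%, 0.817 to 1.55), below the 2.43% of protein-coding genes. Their median score was 138, the same as over all single-start peaks. The highest were lncRNA:CR31840 (618 in the thresholded list, 264 in replicate 3, 357 in replicate 4), lncRNA:CR31044 (381, 189.8 and 191) and lncRNA:CR44810 (243, 97.7 and 142), followed by lncRNA:CR45595 (227, 129 and 95.4) and lncRNA:CR44339 (218, 109 and 113). No single-start peak was found at 290 transfer RNA genes (upper end of the Wilson interval 1.31%) or 269 small nucleolar RNA genes (1.41%). Of 32 small nuclear RNA genes 1 had one (3.13%, 0.554 to 15.7, which holds 2.43%), snRNA:7SKa (93.3), the RNA that holds the elongation factor P-TEFb inactive. None of 330 pseudogenes had one. The rule leaves out any peak within 500 bp of the start of a second gene. Peaks at shared starts were not counted for these types of gene, so their counts do not show whether they lack peaks.

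The summits were rich in A and T. Within 100 bp of the summit the median A+T content was 64.7% (63.7 to 65.2) at single-start peaks, 65.7% at shared starts and 64.2% far from starts. It was 58.2% (57.7 to 58.7) at regions below the threshold, 63.2% at those with a q-value of 0.05 or less, and 62.7% in 19246 windows of the same length centred 164 bp upstream of all nuclear protein-coding starts. The A+T content of the 3 sets of thresholded peaks was thus alike. The single-start summits stood above the flanks, with 66.0% in the 25 bp before the summit against 56.1% and 57.4% in the outermost bins 300 bp away. Windows at all starts also rose toward their centre, from 57.1% in both outermost bins to 62.9% in the 25 bp before it. The single-start median of 64.7% was only slightly above the 62.7% of these windows, and was 63.2% with starts counted within 200 bp. Single-start peaks within 100 bp upstream of the start or inside the transcript had less, with medians of 60.7% and 60.9%, against 65.2 to 66.2% farther upstream.

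**Figure D5:**
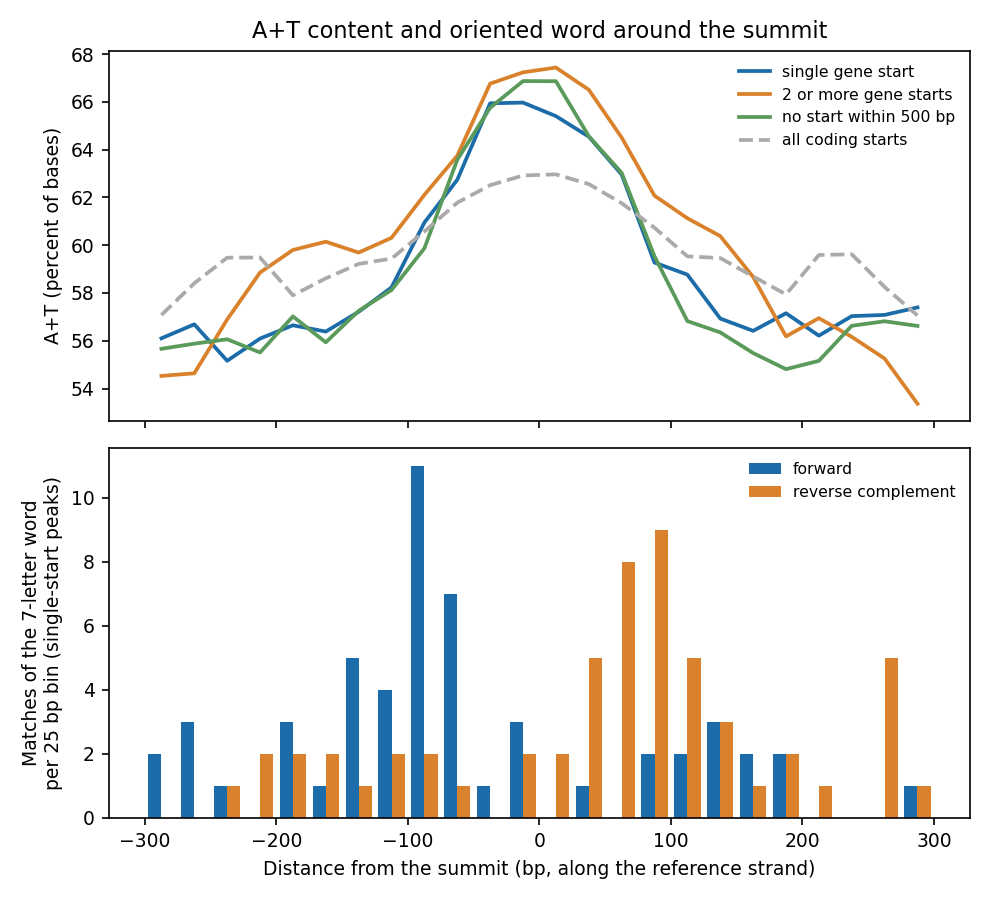
Top, A+T content (y axis, percent of bases) per 25 bp bin against distance from the summit (x axis, bp along the reference strand) for single-start peaks (blue), shared-start peaks (orange), peaks far from starts (green) and windows at all protein-coding starts, centred 164 bp upstream of the start (dashed grey). Bottom, number of matches of CACAGTG (blue) and of its reverse complement (orange) per 25 bp bin around the 396 single-start summits: 41 of 54 matches of the former lie to the left of the summit, 19 of them 60 to 110 bp away, and 42 of 57 of the latter to the right, 16 of them 60 to 110 bp away.

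Known promoter motifs were counted on both strands within 100 bp of the summit. The windows at all starts were those centred 164 bp upstream, so they do not reach the start itself, while some peak windows do. Their shares are thus not the rates of these motifs at the start. The DRE (TATCGATA), bound by DREF, was found at 11 of 396 single-start peaks (2.78%, 1.56 to 4.90), at 9.55% of shared starts (6.33 to 14.2), 0.153% of peaks far from starts, and 3.02% of windows at all protein-coding starts. The share was 6.94% at single-start peaks with starts counted within 200 bp and 1.52% when only 50 bp on each side of the summit were searched, so its order against all starts was not settled. Of the 11, 5 were at ribosomal protein genes, and their median position was -28 bp, close to the start. The E-box CACGTG was found at 18 single-start peaks (4.55%, 2.89 to 7.07), against 2.26% at all starts and 1.23% far from starts, and 5 of these 18 were also at ribosomal protein genes. Shared starts had it at 2.73% (1.26 to 5.82), an interval that overlaps that of single-start peaks. The GAGA word (GAGAG) stood at 28.3% of single-start peaks (24.1 to 32.9), against 18.6% of shared starts and 24.5% of all starts. It stood at 27.8% of peaks far from starts, 26.0% of regions below the threshold and 30.3% of those with a q-value of 0.05 or less. The single-start interval held all of these shares except that of shared starts. The E-box CAGCTG (7.83%), TATAAA (34.8%), the initiator core TCAGT (33.6%), the Motif 1 core GGTCACAC (1.77%), the Zelda word CAGGTAG (0.505%) the ewg word GCGCATGC (0.758%), the CA repeat CACACACA (3.79%), the AT repeat TATATATA (3.79%) and the A tract AAAAAAAA (11.6%) had intervals that held the share of all starts. The ETS word CCGGAA did not (7.32%, 5.15 to 10.3, against 4.13%). Its interval did hold the shares at shared starts (8.64%), at regions below the threshold (6.53%) and at those with a q-value of 0.05 or less (6.34%). Far from starts the share was 4.29%.

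The DRE is shown in its place at 3 ribosomal protein genes whose single-start peak has it within 50 bp of the summit. The stretches are on the + strand of dm6, without bases annotated as untranslated, from RpS10b (chrX:19597945-19598030), RpL27 (chr3R:25685052-25685129) and RpS15Aa (chrX:13337706-13337766), and capitals mark the DRE.
RpS10b: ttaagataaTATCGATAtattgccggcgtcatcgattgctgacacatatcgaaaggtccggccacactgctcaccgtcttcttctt
RpL27: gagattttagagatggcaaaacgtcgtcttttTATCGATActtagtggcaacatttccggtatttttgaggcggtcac
RpS15Aa: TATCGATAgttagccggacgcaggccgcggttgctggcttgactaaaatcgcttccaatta
Their scores were 162, 130.1 and 96.8 in the thresholded list, 65.0, 58.1 and 46.6 in replicate 3 and 98.6, 64.6 and 48.6 in replicate 4.

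One further word was found by looking at these data, and its counts are a description of the same peaks it was found in. All 8-letter words within 100 bp of the single-start summits were compared with the windows at all starts, and 24334 such words were present. The word with the largest excess was CACAGTGG, at 30 of 396 single-start peaks (7.58%) against 1.13% of all starts, and the next was CACTGTGC (7.07% against 1.19%); both hold CACAGTG or its reverse complement. Several shorter words were then tried, and the limits of 60 and 110 bp used below, and the second word, were chosen after positions had been seen in all 3 sets of peaks.

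CACAGTG lay to the sides of the summit with a preferred orientation. It was counted as facing inward where it read 5′ to 3′ toward the summit from 60 to 110 bp away. An inward match was found at 30 of 396 single-start peaks (7.58%, 5.36 to 10.6) and an outward one at 8 (2.02%, 1.03 to 3.94). Peaks far from starts had 39 inward and 14 outward matches of 652, and shared starts 6 and 2 of 220. Neither set entered the comparison of words, but word positions in both had been seen before the limits were set. Regions below the threshold had nearly equal numbers, 30 inward and 27 outward of 1991, as did windows at all starts, with 164 and 132 of 19246. Those 284 regions below the threshold with a q-value of 0.05 or less had 7 inward (2.46%) and 1 outward (0.352%). More inward than outward matches were therefore counted in all 3 sets of thresholded peaks, with few at shared starts. The same lean was seen in these 284 regions, also from few matches, so it was not confined to thresholded peaks. In the replicate lists taken alone, the inward share was 4.55% at the highest regions of replicate 4 and 8.33% at those of replicate 3, against outward shares of 1.77% and 1.56%.

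Single-start peaks with an inward match had a median score of 181 in the thresholded list (129 to 215), 90.0 in replicate 3 and 91.9 in replicate 4. Those without had 135 (128 to 142), 67.4 and 69.4. By quartile of score from the highest, the inward share was 15.2% (9.40 to 23.5), 5.05%, 6.06% and 4.04%. All starts had 0.852%, but the word was chosen for its excess over those windows, so a higher share at the peaks was built in. The share was highest in the highest quartile, though its interval overlapped those of the other quartiles. CTCAGTG, a word that differs from it by 1 letter, was oriented the other way at single-start peaks, with 12 outward and 3 inward matches, and far from starts, with 33 and 4. At shared starts it had 2 and 3, too few to show an orientation.

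At 5 single-start peaks (1.26%) the inward word stood on both sides of the summit, as it did at 6 of 652 peaks far from starts (0.920%) and 1 of 220 shared starts (0.455%), against 4 of 19246 windows at all starts. They were at PAN3, Rtnl1, Kal1, CG5910 and lncRNA:CR44222, with the copies 141 to 182 bp apart. The 3 highest are printed below over 120 bases on each side of the summit, on the + strand of dm6, and capitals mark CACAGTG and its reverse complement. They are PAN3 (chr3L:3081307-3081547, copies 182 bp apart), Rtnl1 (chr2L:4997543-4997783, 172 bp) and Kal1 (chr3R:24141110-24141350, 180 bp). The peak at for (chr2L:3632387-3632627) is added to show CTCAGTG facing outward, with the reverse complement of that word in capitals.
PAN3: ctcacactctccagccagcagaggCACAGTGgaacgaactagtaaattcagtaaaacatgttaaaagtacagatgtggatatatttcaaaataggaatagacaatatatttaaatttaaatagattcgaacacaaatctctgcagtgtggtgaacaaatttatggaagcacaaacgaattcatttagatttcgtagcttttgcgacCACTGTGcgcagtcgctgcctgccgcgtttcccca
Rtnl1: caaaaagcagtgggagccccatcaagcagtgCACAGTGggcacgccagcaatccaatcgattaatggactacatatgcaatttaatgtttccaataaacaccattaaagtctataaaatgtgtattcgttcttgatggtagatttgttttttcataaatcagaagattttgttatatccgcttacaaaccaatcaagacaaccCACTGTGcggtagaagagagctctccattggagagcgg
Kal1: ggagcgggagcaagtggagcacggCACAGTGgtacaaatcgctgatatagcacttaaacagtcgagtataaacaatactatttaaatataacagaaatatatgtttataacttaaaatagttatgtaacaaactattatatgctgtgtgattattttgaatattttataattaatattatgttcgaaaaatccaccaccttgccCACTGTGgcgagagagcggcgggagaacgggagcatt
for: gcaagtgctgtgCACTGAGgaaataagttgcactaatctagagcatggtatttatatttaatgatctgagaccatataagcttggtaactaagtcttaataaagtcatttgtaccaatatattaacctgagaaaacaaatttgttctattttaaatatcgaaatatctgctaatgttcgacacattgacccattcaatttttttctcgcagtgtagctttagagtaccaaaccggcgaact
At PAN3 the A+T content was 65.7% within 100 bp of the summit and 60.6% over the whole printed stretch, at Rtnl1 63.7% and 59.8%. Kal1 had 149 in the thresholded list, 100.5 in replicate 3 and 50.5 in replicate 4, CG5910 had 125, 74.6 and 50.4, and lncRNA:CR44222 had 114, 59.7 and 60.5. The pair was thus present at peaks of high and of ordinary score.

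Among nuclear promoter peaks of the thresholded list, 64.3% were at a single start (60.4 to 68.0), against 70.3% of promoter regions below the threshold (68.6 to 71.98) and 61.2% of those with a q-value of 0.05 or less (56.7 to 65.5). Of all bases within 500 bp of a start, 83.6% lie near exactly 1 gene. Single starts were therefore less frequent among promoter peaks than among promoter bases. How much of this follows from the position of the summits relative to starts was not tested.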

How the data were processed

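The deposited files are peak lists of ChIP-seq of TFAM-GFP from 2 replicates. Per the labels, alignments are to dm6 and dm3, and only the dm6 lists were used; aligner and peak caller: not given in the sources used here. The authors made 1 list of peaks with background for each replicate, 1 for both pooled, and 1 thresholded on the irreproducible discovery rate. The deposited score of each peak was used to rank and describe peaks within a list. The deposited −log10 q-value was used only to separate regions at 0.05 or less. The lists hold no reads, so the depth is unknown.

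Starts, genes and untranslated regions came from Ensembl 115 (BDGP6.54) without transposable elements, and bases from the RefSeq Release 6 FASTA. Python 3.11.15, numpy 2.4.6, pandas 2.3.3, scipy 1.17.1 and matplotlib 3.10.9 were used, and the counting steps were tested on simulated peaks. Shares have 95% Wilson intervals and medians order-statistic intervals. Each peak took the score of the nearest summit in each replicate list.

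The genes named are those of the 25 highest peaks, up to 5 of each of 23 lists, up to 10 with 2 or more peaks, the 5 highest non-coding genes of each type, TFAM, and 3 peaks on each side of the 500 bp limit; genes in sequence examples were added. The rule for peaks, the gene lists and the 13 motifs were chosen with earlier results of these data known.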

Additional observations from a re-analysis of the deposited data

How the results depend on the processing

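The same number of highest regions was taken from 1 replicate list to leave out the other. The median position was then -183.5 to -144.5 bp, the share upstream was 76.8 to 86.7%, the median score 70.9 to 71.5 and the median A+T content 63.2 to 66.2%. With the scores of replicate 3 or replicate 4 the median score was 68.9 or 70.7; these lists have their own scales.

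With starts counted within 200 bp, 72.4% of promoter peaks were at a single start, the median position was -97 bp, the score difference to shared starts was -19.2 where it had been 5.90, and A+T was 63.2%. In that window a DRE stood at 6.94% of peaks, 1.92% of protein-coding genes and 35.5% of ribosomal genes had a peak, and 96.9% of peaks were matched in both replicates. Within 1000 bp, 58.9% of promoter peaks were single, 76.0% of summits were upstream, and 6.45% of ribosomal genes had a peak.

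Among nuclear peaks with a score at or above their median, there were 215 single-start peaks with a median of 182, at 1.35% of protein-coding and 9.68% of ribosomal genes, 96.7% matched in both replicates. The matched share was 76.0% within 50 bp, 99.7% by any overlap, and 86.6% with a q-value of 0.05 or less. Within 50 bp of the summit, A+T was 67.3% and a DRE stood at 1.52% of peaks. The score difference to shared starts also turned negative in replicate 3 (-3.23) and in the upper part of the list (-12.7).

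For the inward word, chosen after seeing the data, limits of 50 to 150 bp gave 11.1%, and leaving out replicate 3 gave 4.55%. Over all results and settings tried, 49 alternative values moved by less than the main value's counting interval or, for counts, by less than 1.5 times. These include the negative score differences in replicate 3 and in the upper part of the list, so even the sign of that difference is not settled. No paired analysis was possible because there is 1 group. Depth is unknown, so faint peaks cannot be told from missing ones. The lists come from whole embryos and no untagged sample was analysed here.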
